A study of Mus musculus with 8 samples.

Results

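Of the open chromatin regions (OCRs) counted in these cells, 69817 of 185268 (37.7%) were shorter than 1500 bp and shared no base with any annotated repeat, and they are described here. They were found by comparing the interval of every OCR with every fragment of the 4650627 repeats in the same table. The rule used positions and lengths only and no count. Below 1500 bp there were 181314 OCRs, so repeat-free OCRs made up 38.5% of them, and the other 111497 held at least 1 repeat base. All positions are in build GRCm39.

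Chromatin accessibility was measured by ATAC-seq, in which a transposase cuts nuclear DNA where it is not packed away, in primary lung fibroblasts of the mouse. The cells came from 4 cGAS knockout mice (cGAS KO) and 4 wild-type mice (WT), with 2 mice labelled female and 2 labelled male in each genotype. All cultures were kept at 5% CO2 and 5% O2. Age, strain and the knockout allele were not given in the sources used here. A library's name gives its genotype, its sex label and its number, as in KO F1 for the first female-labelled knockout.

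Repeats are mostly the remains of transposable elements (LINE, SINE and LTR elements), which cells tend to keep in closed chromatin, although some copies carry binding sites for transcription factors and lie in open regions. Open chromatin marks promoters, enhancers and other sites where factors bind DNA. cGAS is an enzyme that binds DNA and makes a messenger that starts the interferon response, and it is also found in the nucleus, attached to nucleosomes. The title of the series raises chromatin organization and LINE1 derepression as its questions. Repeat-free OCRs are the regions where such a comparison does not involve the annotated repeats' own sequence. The lack of an annotated repeat does not make a sequence unique. All female-labelled libraries had counts in repeat-free OCRs on the Y chromosome, as given below. Whether reads in repeat-free OCRs could also be placed elsewhere was not tested.

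The libraries held 28.0 to 55.3 M counts in OCRs, of which 8.91 to 17.99 M lay in repeat-free OCRs. KO M2 was the shallowest library and had the largest part of its table counts in repeat rows (35.4%), followed by WT F1 (34.9%), against 23.6 to 30.4% in the other 6. Of the 18 repeat-free OCRs on the Y chromosome, 5 had no count in KO F1, WT F1 and WT F2 and summed to 19.9 to 26.9 CPM (counts scaled to the library's OCR total) in the 4 male-labelled libraries. The library labelled KO F2 had 12.4 CPM there, between the other female-labelled and the male-labelled libraries, which goes against its sex label. All 18 together did not separate the labels. They summed to 46.1 to 63.2 CPM where the label was female and 45.8 to 65.3 CPM where it was male. In bulk libraries such as these, fewer cells with an open region and a less open region in every cell cannot be told apart.

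Repeat-free OCRs were shorter than the others. Their lengths ran from 201 to 1499 bp with a median of 454 bp (quartiles 340 and 648), and they covered 36.8 Mb. Repeat-containing OCRs under 1500 bp had a median of 551 bp (quartiles 382 and 792). The repeat-free share was 49.1% among OCRs of 200 to 299 bp and 21.1% among those of 1400 to 1499 bp, lower in each longer class. Above the length limit it was 15.6% (616 of 3954 OCRs). A longer interval has more bases in which to meet a repeat, and repeats covered 44.4% of the 2662 Mb that the table spanned. Across autosomes the share lay between 36.3% (chromosome 5) and 40.4% (chromosome 13). The X chromosome was below all autosomes at 34.4%, with 1441 repeat-free OCRs, and the Y chromosome had the lowest share, 21.2%.

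**Figure D1:**
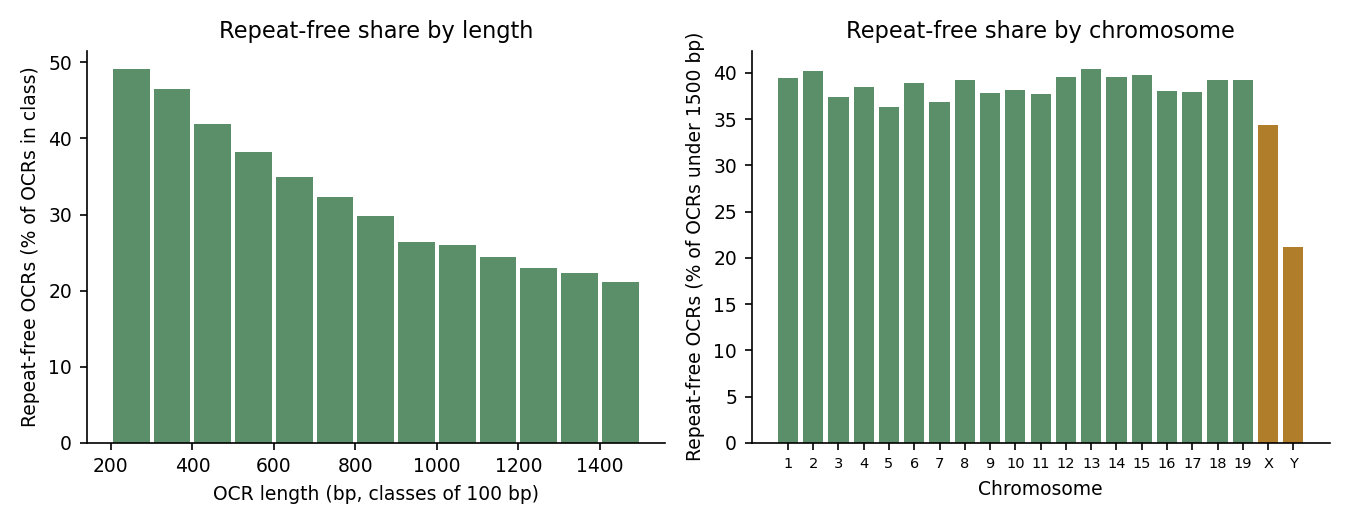
Left, the share of OCRs that were repeat-free (percent, vertical axis) in each 100 bp class of OCR length; right, the share among OCRs under 1500 bp on each chromosome. The share is 49.1% in the shortest class and 21.1% in the longest, and X (34.4%) and Y (21.2%) lie below the autosomes.

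Most repeat-free OCRs lay close to a repeat. The nearest repeat base was a median of 185 bp away, 28 bp or less for 10% of the OCRs and 732 bp or more for another 10%, and the repeat-free stretch around each OCR had a median length of 1495 bp. At the edge of the rule, 260 repeat-free OCRs abutted a repeat and 259 OCRs were left out for 1 shared base. The 1300 repeat-free OCRs with fewer than 5 bases to a repeat had a median level of 4.78 CPM per kb, and the 1298 OCRs sharing at most 5 bases with repeats had 4.68. Accessibility hardly followed the distance: the median was 4.87 CPM per kb at 0 to 49 bp, 4.53 at 200 to 499 bp and 4.98 at 1000 bp or more. At the length limit, the longest members all had 1499 bp, at chr16:57335462-57336960 (5.24 CPM per kb), chr19:21859382-21860880 (8.23) and chr7:127836872-127838370 (26.9). The shortest OCRs left out had 1500 bp, at chr13:69758802-69760301 (28.0 CPM per kb), chr13:74955629-74957128 (23.9) and chr1:186463104-186464603 (2.14).

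The surroundings of repeat-free OCRs were poorer in repeats too. Within 1 kb on either side, repeats covered a median of 20.9% of the bases, against 35.6% around repeat-containing OCRs weighted to the same lengths. The rule itself bears on the nearest bases, so a ring from 1 to 10 kb beyond the OCR was also measured, and repeats covered 32.2% of it against 37.0%. Each large class was lower in the ring of repeat-free OCRs: SINE elements covered 8.26% against 9.71%, LINE elements 5.11% against 5.69% and LTR elements 7.72% against 9.31%. The nearest OCR on either side was 2116 bp away at the median, against 2345 bp. The OCR that came before along the chromosome was repeat-free for 41.1% of repeat-free OCRs and for 35.6% of repeat-containing ones under 1500 bp (37.7% over all OCRs). These are descriptions of positions, with no test.

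Repeat-free OCRs had more counts per kb than repeat-containing OCRs of the same length in every library. Their median levels were 4.88, 4.68, 4.67 and 4.67 CPM per kb in KO F1, F2, M1 and M2, and 4.90, 4.49, 4.39 and 4.64 in the WT libraries in the same order. The levels of length-matched repeat-containing OCRs were 3.63, 3.57, 3.49 and 3.56 in KO and 3.66, 3.40, 3.26 and 3.38 in WT. All 8 values of the former lay above all 8 of the latter, and the ratio was 1.34 ± 0.022 (SD, n = 8 libraries, 1.31 to 1.37). The way the table was counted bears on this ratio. A read end that lay both in an OCR and in a repeat was divided equally between them, so a repeat inside an OCR took part of that OCR's counts, while 100% of the counts in repeat-free OCRs were whole numbers within 0.001 (51.7% in repeat-containing ones).

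When every base was weighted by the part of a read that the OCR could keep there, called the effective length here, the repeat-containing OCRs reached 4.41 ± 0.17 CPM per kb (SD, n = 8) and the ratio was 1.06 ± 0.020. It was above 1 in 8 of 8 libraries, from 1.03 in KO F2 to 1.09 in WT M2. The genotypes overlapped in this ratio. Divided by length, the median went from 4.67 CPM per kb without repeats to 4.78 where repeats covered up to 10% of the OCR, 3.66 at 25 to 50% and 1.77 in OCRs wholly within repeats. With the effective length the values were 4.67, 4.92, 4.48 and 3.54. Repeat-free OCRs were therefore not the most accessible class on that scale: OCRs with up to 10% (4.92) and with 10 to 25% (4.95) repeat cover lay above them in each of the 8 libraries, and those with over 50% lay below them in each.

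**Figure D2:**
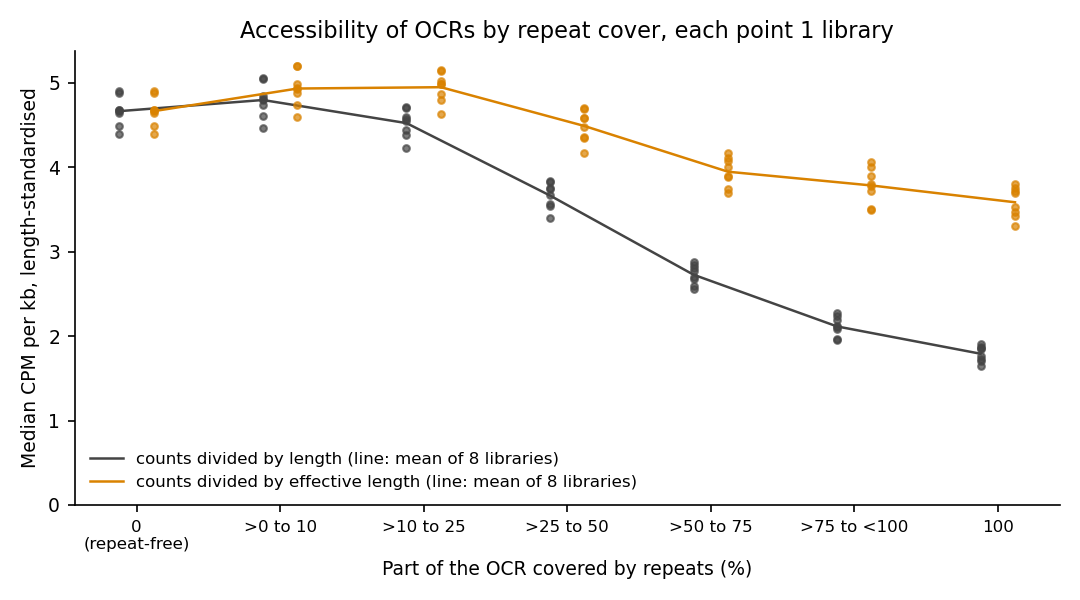
Median accessibility (CPM per kb, weighted to the lengths of repeat-free OCRs) by the part of the OCR covered by repeats; each point is 1 library and each line joins the means of 8 libraries. Divided by length, the overall median is 4.67 without repeats and 1.77 at full cover; with the effective length it is 3.54 at full cover.

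Among repeat-free OCRs, the level varied with the repeats found 1 to 10 kb away. In the quintile with the least LINE sequence there, the length-weighted median was 6.14 CPM per kb, and it was 5.49, 4.71, 4.20 and 3.63 in the following quintiles. SINE sequence ran the other way, with 3.86, 4.19, 4.56, 5.12 and 6.23 CPM per kb from the poorest to the richest quintile. LTR sequence had a smaller range, from 5.32 to 4.19. The lowest and highest quintiles kept these orders in each of the 8 libraries: for SINE the poorest ran from 3.71 (WT M1) to 4.15 (WT F1) and the richest from 5.68 (WT M1) to 6.52 (KO F1). SINE-rich and LINE-poor sequence is known to be gene-rich in mammals. Genes and base composition were not analysed here.

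At the most accessible repeat-free OCRs the genotypes overlapped. The highest mean level was 96.4 CPM per kb at chr17:57338383-57339422, which had 96.2, 104, 91.2 and 112 CPM in KO F1, F2, M1 and M2 and 88.0, 103, 114 and 93.2 CPM in the WT libraries in the same order. The groups overlapped, with a fold of 1.01 (95% interval 0.858 to 1.19, KO over WT). The next 4 were chr11:87482459-87483412 (88.7 CPM per kb), chr19:5862020-5862528 (83.3), chr6:124805735-124806773 (80.0) and chr6:122285343-122286090 (79.8). Their log2 folds were 0.05, -0.20, -0.01 and -0.08, and KO and WT values overlapped at each. The widest of these differences, at chr19:5862020-5862528, was a fold of 0.871 (95% interval 0.706 to 1.07, KO over WT). Over all repeat-free OCRs 5% lay below 1.90 and 5% above 22.6 CPM per kb, and a median OCR held 95.8 counts per library. The 10% with the highest mean CPM, not divided by length, held 42.96% (WT F1) to 48.7% (WT M1) of the counts in repeat-free OCRs. That choice favours long OCRs.

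The part of all OCR counts that fell in repeat-free OCRs did not separate the genotypes. It was 32.5% in KO F1, 32.2% in KO F2, 32.5% in KO M1 and 31.9% in KO M2, and 32.6%, 32.1%, 32.4% and 32.6% in the WT libraries in that order. KO M2 was lowest, and the other KO libraries lay within the range of WT. KO had a mean of 32.3 ± 0.32% and WT one of 32.4 ± 0.20% (SD, n = 4 libraries each), a difference of -0.125 percentage points that was smaller than either SD. Without KO M2 the difference was 0.010 points, with the opposite sign.

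**Figure D3:**
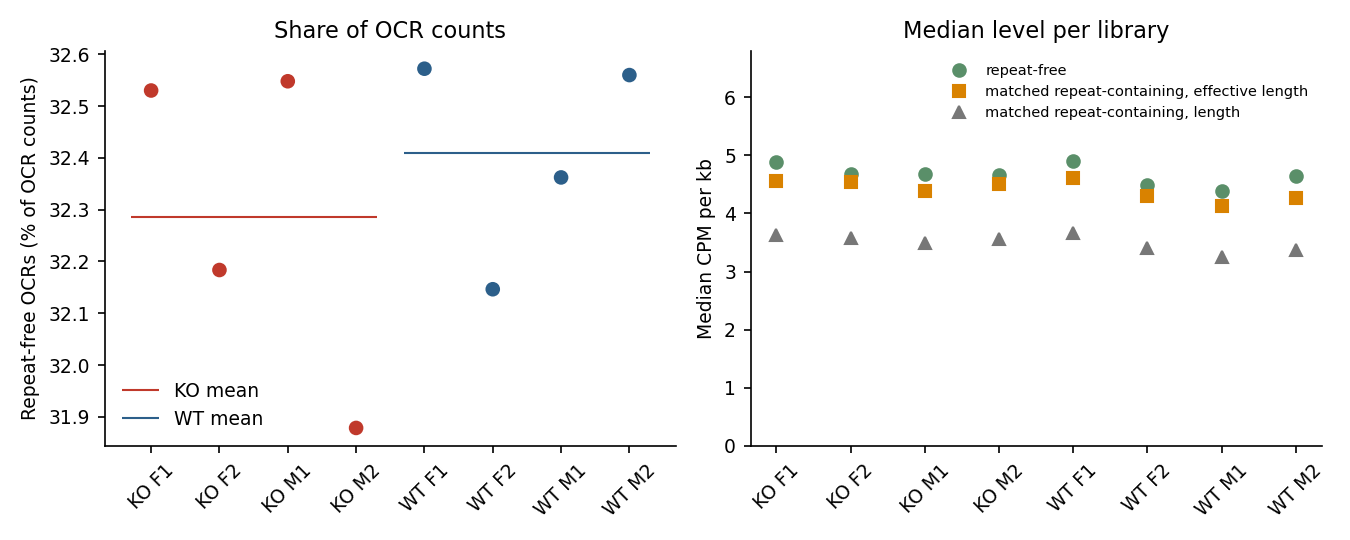
Left, the part of OCR counts in repeat-free OCRs for each library (percent; the axis does not start at 0), with a line at each genotype's mean (32.3% KO, 32.4% WT); right, median CPM per kb of repeat-free OCRs and of length-matched repeat-containing OCRs by length and by effective length. The genotypes overlap on the left, and on the right the order of the 3 classes is the same in all 8 libraries.

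Between genotypes, no repeat-free OCR passed an adjusted p of 0.05 in edgeR's quasi-likelihood test, fitted on all 185268 OCRs (background 0.0% of all OCRs; lowest adjusted p = 0.323). At an unadjusted edgeR p under 0.05 there were 7345 repeat-free OCRs (10.5%) against a background of 9.88% of all OCRs. Of these, 4634 had higher values in KO (6.64% of repeat-free OCRs, background 6.42%) and 2711 lower values in KO (3.88%, background 3.45%). DESeq2 called 1203 repeat-free OCRs at its adjusted p of 0.05 (1.72%, background 1.48%). Of these, 1009 were higher in KO (1.45%, background 1.24%) and 194 lower (0.278%, background 0.234%). DESeq2 gave no adjusted p at 2538 repeat-free OCRs, 11830 repeat-containing ones under 1500 bp and 14368 of all OCRs. They could not be called and stay in the denominators of its shares. No repeat-free OCR was called by limma voom, and 11195 had an unadjusted p under 0.05 in it (16.03%, background 15.3%). All 4 KO values lay above all 4 WT values at 2456 repeat-free OCRs (3.52%, background 3.47%) and below them at 1922 (2.75%, background 2.51%). Both directions together made up 6.27% of repeat-free OCRs and 5.98% of all OCRs. In each of these counts the share of repeat-free OCRs was near that of all OCRs, so none is a result about repeat-free OCRs in particular.

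The differences were small in the middle and uneven at the ends. The median log2 fold was -0.01 (KO minus WT), and 48.4% of repeat-free OCRs had higher fitted values in KO. The 95% interval of the fold lay within 2-fold in both directions for 58.6% of repeat-free OCRs (background 60.5%). A log2 fold over 1 was fitted at 2982 repeat-free OCRs (4.27%, background 4.06%) and one under -1 at 372 (0.533%, background 0.464%). Single libraries moved these counts. Without KO M2, 1564 were over 1 and 3954 had an unadjusted edgeR p under 0.05, and without WT F1 the count over 1 was 4565. The count under -1 was 1192 without KO F2, 956 without KO F1, 675 without WT F1 and 648 without KO M1. The count of unadjusted p was 4889 without WT M1 and 4951 without WT M2. It was 9050 without KO F2 and 9057 without WT F1. With a library left out, the share of all OCRs is not given here. These shifts therefore say nothing about repeat-free OCRs in particular.

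Where repeat-free OCRs were more accessible, the fitted differences were narrower. From the lowest to the highest quintile of level, the SD of the log2 folds was 0.55, 0.52, 0.48, 0.38 and 0.23. The share at an unadjusted edgeR p under 0.05 was 10.4, 11.97, 12.4, 10.3 and 7.47% (background 9.88% of all OCRs). DESeq2 called 125, 277, 384, 322 and 95 in the same quintiles, or 0.895, 1.98, 2.75, 2.31 and 0.680% (background 1.48%). Both backgrounds are over OCRs of all levels. OCRs without a DESeq2 adjusted p stay in the denominators, and their number in each quintile is not given here. The most accessible quintile also differed from the least accessible one in length (medians of 641 and 374 bp) and in distance to the nearest OCR (1335 and 4207 bp). More counts lay behind each fold in the upper quintiles, and the part of counting error in the order was not tested.

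Because edgeR called no OCR, the repeat-free OCRs with the lowest p, 10 for each direction, are given as values. All 20 had an edgeR adjusted p of 0.323 and an adjusted p under 0.05 in DESeq2. The choice by low p fixes that their groups lay apart and makes large folds likely, so their folds and intervals are descriptions and support nothing about the genotypes. Their folds ran from 1.63 to 3.41 in favour of KO and from 1.70 to 3.55 in favour of WT, on 10 chromosomes.

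Among those with higher values in KO was the 662 bp OCR at chr2:44842763-44843424. It had 6.17, 7.12, 6.71 and 7.17 CPM in KO F1, F2, M1 and M2, and 3.86, 2.93, 3.44 and 3.21 CPM in WT F1, F2, M1 and M2. Every KO library was above every WT library, at 6.79 ± 0.463 against 3.36 ± 0.394 CPM (SD, n = 4 each), a fold of 2.02 (95% interval 1.55 to 2.64). The 483 bp OCR at chr8:69275237-69275719 had the largest fold of the 10, 3.41 (2.14 to 5.44), from few counts: 1.63, 2.11, 1.37 and 2.58 CPM in KO and 0.603, 0.511, 0.608 and 0.519 CPM in WT. KO F2 and KO M2 were the highest there, and the WT values lay close together. It stood 987 bp from the nearest repeat on its left and 5015 bp on its right.

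The same order among the KO libraries, with KO F2 and KO M2 above KO F1 and KO M1, was seen at several others. At chr1:107424499-107425129 (631 bp) the values were 9.25, 11.6, 7.81 and 13.7 CPM in KO and 5.10, 4.62, 5.27 and 3.90 CPM in WT, a fold of 2.24 (1.62 to 3.08). At chr8:123288022-123288307 (286 bp) they were 3.45, 5.01, 2.58 and 5.42 CPM in KO and 1.51, 1.35, 1.38 and 1.12 CPM in WT, a fold of 3.06 (1.98 to 4.73). At chr10:43872308-43872592 (285 bp) they were 1.54, 2.28, 1.53 and 2.40 CPM in KO and 0.575, 0.644, 0.547 and 0.654 CPM in WT. KO F2 and KO M2 were also the highest libraries at chr15:66920158-66920882 (2.99-fold), chr15:9571793-9572332 (3.35-fold), chr8:116034165-116034568 (2.86-fold) and chr14:30887970-30888844 (1.63-fold). At chr17:3154445-3154752 (3.21-fold), KO F1 with 1.79 CPM was above KO M2 with 1.72.

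Among those with lower values in KO, the 697 bp OCR at chr2:125294319-125295015 had the smallest fold. It had 6.13, 6.44, 5.53 and 5.17 CPM in KO F1, F2, M1 and M2, and 9.42, 10.4, 10.4 and 9.29 CPM in the WT libraries in that order. The means were 5.82 ± 0.575 and 9.88 ± 0.607 CPM (SD, n = 4 each), 1.70-fold higher in WT (95% interval 1.37 to 2.12). The 427 bp OCR at chr4:136771802-136772228 had 0.676, 0.823, 0.908 and 1.00 CPM in KO and 1.92, 1.69, 2.15 and 2.37 CPM in WT, 2.38-fold higher in WT (1.64 to 3.47). The 390 bp OCR at chr14:73568838-73569227 had 0.349, 0.460, 0.480 and 0.646 CPM in KO and 1.31, 1.16, 1.62 and 1.44 CPM in WT, 2.88-fold higher in WT (1.86 to 4.47). In these OCRs the WT libraries differed little among themselves.

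At others, 1 WT library stood close to KO or far above the rest. The 591 bp OCR at chr11:18481603-18482193 had 1.56, 2.91, 3.33 and 2.87 CPM in KO and 3.64, 7.15, 10.4 and 8.58 CPM in WT, 2.72-fold higher in WT, with WT F1 just above KO M1. The 1074 bp OCR at chr17:50746036-50747109 had 1.61, 1.84, 2.95 and 2.40 CPM in KO and 3.62, 4.04, 4.68 and 8.81 CPM in WT, 2.36-fold higher in WT, and WT M2 was far above the other WT libraries. WT M2 was the highest library and WT F1 the lowest WT library also at chr10:86261428-86262247 (3.19-fold) and chr2:168452682-168453422 (1.96-fold). At chr2:147424691-147425284 (3.55-fold), WT F1 was again the lowest WT library with 1.21 CPM, and KO F2 the highest KO library with 0.654 CPM. The remaining 2 OCRs, both on chromosome 18, were 3.09-fold and 2.01-fold higher in WT.

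**Figure D4:**
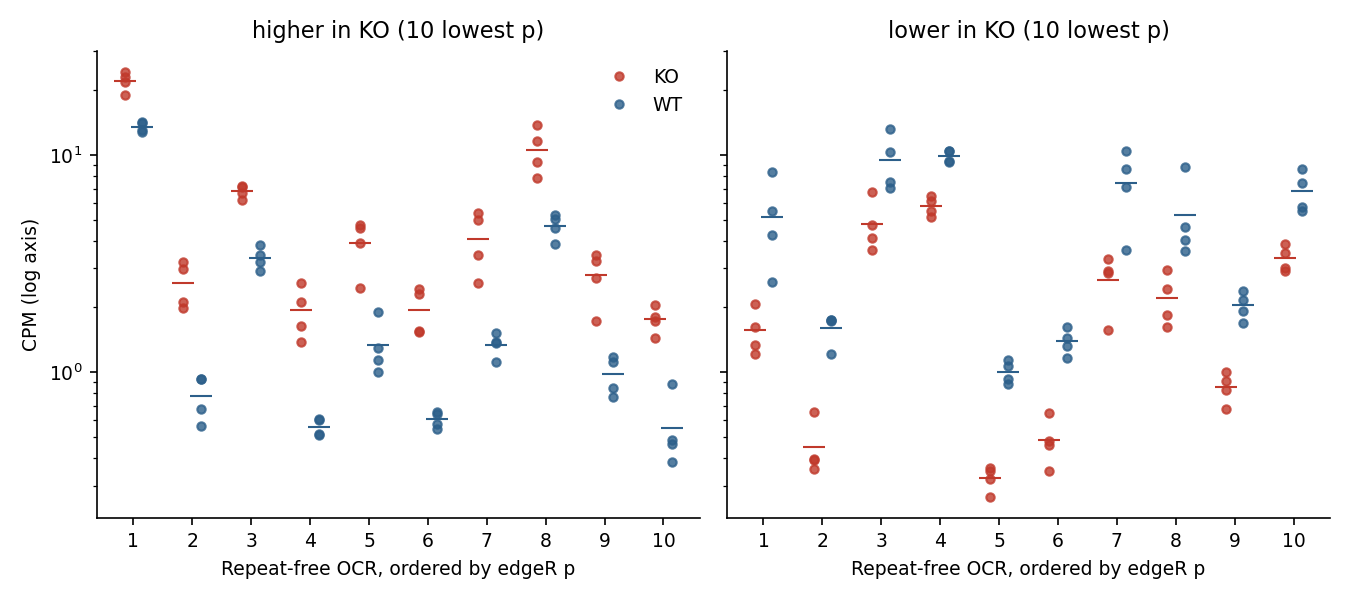
CPM (log axis) of the 10 repeat-free OCRs with the lowest edgeR p among those higher in KO (left) and lower in KO (right), in order of p; each point is 1 library and each bar the mean of 4. The groups do not overlap at any of the 20, which the choice by low p makes likely, and the folds run from 1.63 to 3.41 on the left and from 1.70 to 3.55 on the right.

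Differences of repeat-free OCRs were alike over short distances. Between neighbouring repeat-free OCRs with fewer than 200 bp between them, Pearson's r of their log2 folds was 0.57 (1887 pairs), and 67.5% of the pairs had the same sign. It was 0.42 at 200 to 499 bp, 0.26 at 1000 to 1999 bp and 0.15 at 50000 bp or more (11029 pairs, 53.9% of the same sign). Neighbouring repeat-containing OCRs had r = 0.52 at the shortest and 0.17 at the longest distance. All pairs share the same 8 libraries, and the source of the r at long distances was not tested. The values are descriptions with no test.

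**Figure D5:**
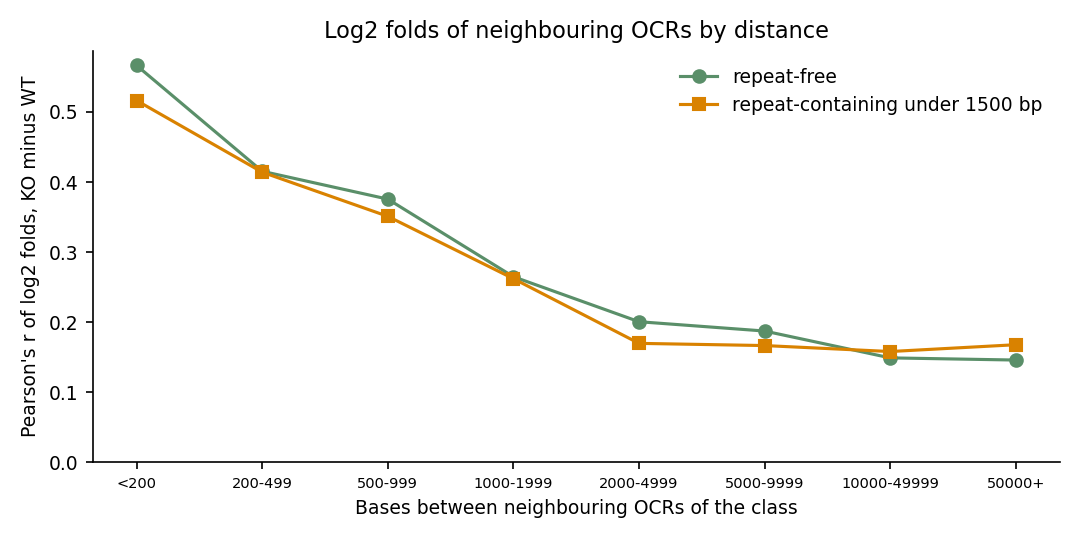
Pearson's r between the log2 folds (KO minus WT) of neighbouring OCRs of the same class, by the number of bases between them, for repeat-free and repeat-containing OCRs under 1500 bp. The r of repeat-free OCRs is 0.57 under 200 bp and 0.15 from 50000 bp.

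The libraries varied about as much at repeat-free as at repeat-containing OCRs. The median SD of log2 CPM over 4 libraries was 0.36 in KO and 0.35 in WT at repeat-free OCRs, and 0.34 and 0.33 at repeat-containing OCRs weighted to the same length and count. The ratio of 1.06 was 1.00 when the comparison was limited to OCRs with less than 10% repeat cover, and 0.97, below 1, when counts were scaled to the effective length and the classes were matched by count only, without length. Across repeat-free OCRs, Pearson's r of log2 CPM between libraries was 0.835 to 0.953 within KO (median 0.904), 0.882 to 0.962 within WT (0.909) and 0.832 to 0.950 across genotypes (0.897). The ranges within and across genotypes overlapped. In a principal component analysis of repeat-free OCRs, the leading component (43.8% of the variance) set WT M2, WT F1, KO M1 and KO F1 against the other 4 libraries, which cuts across the genotypes. On the next component (27.2%) all 4 KO libraries, with weights of -0.50 to -0.15, lay below all 4 WT libraries (-0.03 to 0.57), a separation that was not tested.

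The sex label divided few repeat-free OCRs. No repeat-free OCR was called for a genotype difference that depended on the sex label (lowest edgeR adjusted p = 1.00). At an unadjusted edgeR p under 0.05 there were 1217 (1.74%, background 1.55%). DESeq2 called none, with 1108 at its unadjusted p under 0.05 (1.59%, background 1.39%). Leaving out the library labelled KO F2, edgeR called none, with 2148 at an unadjusted p under 0.05 (3.08%, background 2.69%). For the sex label itself edgeR called none, with 796 at an unadjusted p under 0.05 (1.14%, background 0.996%). Without the library labelled KO F2, whose Y counts went against its label, edgeR called 4 of 69817 repeat-free OCRs. The background was 15 of 185268 OCRs (0.0081%), a larger share. In that fit 2556 repeat-free OCRs had an unadjusted edgeR p under 0.05 (3.66%, background 3.3%). The 4 called were all on the Y chromosome and higher in male-labelled libraries. They lay at chrY:1244810-1246018, chrY:1286209-1286840, chrY:12688686-12689718 and chrY:17401372-17402376. The first had 9.68, 9.08, 9.20 and 9.89 CPM in the male-labelled KO M1, KO M2, WT M1 and WT M2, 0 in KO F1, WT F1 and WT F2, and 5.04 CPM in KO F2. On the X chromosome, repeat-free OCRs held 1.44 counts per 100 autosomal ones in KO F2, against 1.38 to 1.44 where the label was male and 1.43 to 1.52 in KO F1, WT F1 and WT F2, and these ranges overlap.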

How the data were processed

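Per the series' design text, the 8 ATAC-seq libraries were made from primary lung fibroblasts, with cells from 4 cGAS KO mice and 4 WT mice. Tools named in the submitters' processing notes are featureCounts, bedtools, MACS2, Picard, SAMtools, Bowtie2 and Trim Galore, with build GRCm39. The deposited values are estimated counts from featureCounts 2.0.3 over peaks and repeats together, per the file headers: a read counted by its 5' end only and was divided equally among the regions it lay in. Whether positions were shifted for the transposase, and how multi-mapping reads and peak merging were treated, is not given in the sources used here.

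Counts were rounded to whole numbers for the tests. All OCRs were fitted together with edgeR 4.0.16 (R 4.3.3; robust quasi-likelihood test, sex label as covariate, TMM factors, filterByExpr, which removed none), with Benjamini-Hochberg adjustment over all 185268 OCRs and a threshold of 0.05. CPM used TMM-scaled OCR totals, and log2 values a prior count of 2. Levels of repeat-containing OCRs were weighted to the members' lengths in 100 bp classes. The effective length gives a base the weight 1 over (1 + the repeats on it). DESeq2 1.42.0, limma 3.58.1, other scalings, filters, members and covariates, and leaving out each library were the alternatives. The edgeR test was checked on simulated data.

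Named OCRs were the 10 with the lowest edgeR p in each direction, the 5 with the highest CPM per kb and 3 on each side of the length limit; 2 are given without position. Members, lists and rules were chosen with earlier results of these data known. A genome and annotation of GRCm39 were not used here, so genes, promoters, sequences, base composition and cell type markers were not analysed here, nor was the Cgas locus. The number of OCR counts per library limits the precision of single OCRs.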

Additional observations from a re-analysis of the deposited data

Results flagged for a closer look

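Groups of 4 libraries were searched for a single library far from the others at the named OCRs, 56 groups in all. The search found 2, which is below the rate of about 1 in 20 that chance gives. Most of the named OCRs were chosen by low p, so the groups are not a random draw. Both were at chr2:147424691-147425284. Among the KO libraries, KO F2 had 0.654 CPM and the other 3 had 0.359 to 0.396 CPM. Among the WT libraries, WT F1 had 1.21 CPM and the other 3 had 1.71 to 1.74 CPM. Both of these libraries lay towards the other genotype.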

How the results depend on the processing

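The count of 0 repeat-free OCRs called by edgeR between genotypes was also 0 under 19 of 20 alternatives, leaving out each library (0 to 0) included; DESeq2 called 1203. The cause of the gap was not tested. Some of the alternatives could not have differed from 0. The fit without a filter was the same fit, since filterByExpr removed none. The sets of any length and at least 100 bp from a repeat were drawn from the main fit, which called no OCR at all. Deviations from the genotype means correlated between same-numbered libraries at 0.57 (F1), 0.58 (F2), -0.26 (M1) and -0.42 (M2). The correlations were positive for the female labels and negative for the male ones, so whether the numbers pair the libraries is not settled. With sex label and number as a replicate block, edgeR called 0, with 9338 at an unadjusted p under 0.05. None of 356 fits of the 20 OCRs with the lowest p turned their direction, and 20 passed the threshold, all in DESeq2. These OCRs were chosen by low p and their groups did not overlap. A reversal was therefore unlikely from the start, and the kept direction supports nothing about the genotypes. With limma, 716 log2 folds were under -1. Limited to the 51943 repeat-free OCRs with mean counts of 50 or more, 1782 log2 folds were over 1 and 160 under -1. For these counts and that of the replicate block, the share of all OCRs is not given here. They therefore say nothing about repeat-free OCRs in particular.

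The share of counts in repeat-free OCRs differed by -0.646 percentage points (KO minus WT) when the whole table was the denominator, and by -0.213 to 0.010 leaving out each library. The level ratio to length-matched repeat-containing OCRs was 1.06 with the effective length, 1.27 from means in place of medians, 1.06 from means with the effective length (added after seeing the data) and 1.33 to 1.34 leaving out each library. The ratio of spreads was 1.00 with repeat cover under 10% and 0.97 with effective counts and matching by count only, without length; the cause was not tested. Folds of OCRs with few counts are limited by depth most.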
